A study of Drosophila melanogaster with 6 samples.

Results

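The larval serum protein and fat body protein genes encode some of the most abundant secreted and storage-related products of the larval fat body of Drosophila melanogaster. The set was fixed by gene symbol as Lsp1alpha, Lsp1beta, Lsp1gamma, Lsp2, Fbp1 and Fbp2, taking every probe set that the platform annotation assigns to them. Of these 6 genes, 3 had a probe set by that rule, Lsp2, Fbp1 and Fbp2, with 1 probe set each, out of 11982 genes and 18769 probe sets in all. Lsp1alpha, Lsp1beta and Lsp1gamma are not analysed here, so the X-linked Lsp1alpha could not be set against its autosomal paralogs. Lsp2 and Fbp1 lie on chromosome arm 3L and Fbp2 on 2L.

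RNA from whole male larvae in the third instar was hybridised to Affymetrix Drosophila Genome arrays, 1 array per RNA preparation and 3 per genotype. The mutants had the genotype yw/Yy+;msl21/msl21, homozygous for the EMS-induced allele msl21. The controls had the genotype yw/Yy+;msl21/+, so they carried 1 copy of the same allele, although their titles call them wild type. Both groups shared the yw X chromosome and the y+ marked Y chromosome. Each preparation came from a pool of at least 50 larvae, with more larvae where they were smaller, per the labels, so a value is the mean of a pool and the replicate is the preparation. The series addresses what MSL2, a subunit of the complex that raises expression from the single male X chromosome, contributes to X-linked and autosomal expression. All 3 measured genes are autosomal.

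Larval serum proteins are hexamerins, hexamers made by the fat body, released into the hemolymph during larval feeding and taken up again by the fat body before metamorphosis as a store of amino acids. Lsp2 encodes such a hexamerin, built of a single kind of subunit. Fbp1 encodes the fat body receptor through which larval serum protein is taken back up, and its transcription is switched on by ecdysone late in the third instar. Fbp2 encodes a fat body protein related to alcohol dehydrogenase. The messages of Fbp1 and Fbp2 are known to accumulate in the fat body as the third instar proceeds, and Lsp2 is likewise a gene of that instar. Male larvae that lack MSL2 are known to develop slowly and to die around the end of larval life.

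The mutant pools were less alike than the control pools. Correlations over all probe sets lay between 0.9528 and 0.9836 among mutant arrays, between 0.9919 and 0.9931 among control arrays, and between 0.9646 and 0.9845 across genotypes. The median SD of a probe set (log2) was 0.258 among mutant arrays and 0.14 among control arrays. The mean difference between 3' and 5' control probe sets, a sign of RNA quality, was 2.19, 1.33 and 1.88 in mutant replicates 1, 2 and 3, and lay between 1.80 and 1.95 in the controls. Markers of muscle, midgut, testis, blood cells and salivary gland were measured in these whole larvae, though not every listed muscle marker. Gene means ran from 3.04 for a blood cell gene to 14.21 for a midgut gene. The former is not far above the lowest values of the arrays (2.25 to 2.39), so it does not show that its cell type was detected. The values of the 3 genes are therefore given per array below, and their differences with and without mutant replicates 1 and 2.

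Fbp1 message was at a dim level in 1 mutant pool and above every control in another. Its log2 RMA values were 5.27, 13.47 and 12.51 in mutant replicates 1, 2 and 3, against 12.04, 12.05 and 12.56 in control replicates 1, 2 and 3. Mutant replicate 1 was thus the lowest array and mutant replicate 2 the highest, with mutant replicate 3 inside the control range. Against the control mean, the 3 mutant arrays differed by -6.95, 1.25 and 0.29. The first of these corresponds to a 123-fold lower value, and the second to a 2.39-fold higher one. Mutant replicate 1 lay 6.77 log2 units below the next lowest array, while the other 5 arrays together spanned 1.43 units. In mutant replicate 1 the Fbp1 probe set ranked 10855 of 18769 by brightness, below the median of that array (5.90), where RMA compresses differences, so the size of that difference is approximate. In the other arrays it ranked between 95 and 371.

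Lsp2, the hexamerin gene, remained bright in every pool but was low in the same mutant array. It had log2 values of 11.35, 13.93 and 13.59 in mutant replicates 1, 2 and 3, against 13.06, 13.29 and 13.62 in control replicates 1, 2 and 3. Again mutant replicate 1 was the lowest of the 6 arrays and mutant replicate 2 the highest. The differences from the control mean were -1.97, 0.61 and 0.27, or 3.92-fold lower in mutant replicate 1 and 1.52-fold higher in mutant replicate 2. The Lsp2 probe set ranked 601 of 18769 in mutant replicate 1, against ranks between 19 and 171 in the other arrays. At rank 19 its value of 13.93 was close to the brightest value of that array (14.33), and normalization between arrays leaves little room above it.

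Fbp2 followed the same arrays with a wider spread among the controls. Its log2 values were 10.75, 13.71 and 12.85 in mutant replicates 1, 2 and 3, against 12.15, 12.28 and 13.26 in control replicates 1, 2 and 3. Mutant replicate 1 was lowest and mutant replicate 2 highest here too, and mutant replicate 3 lay within the control range. The differences from the control mean were -1.81, 1.15 and 0.28, which is 3.51-fold lower in mutant replicate 1 and 2.22-fold higher in mutant replicate 2. The probe set ranked 899 in mutant replicate 1, against ranks between 49 and 344 in the other arrays.

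**Figure D1:**
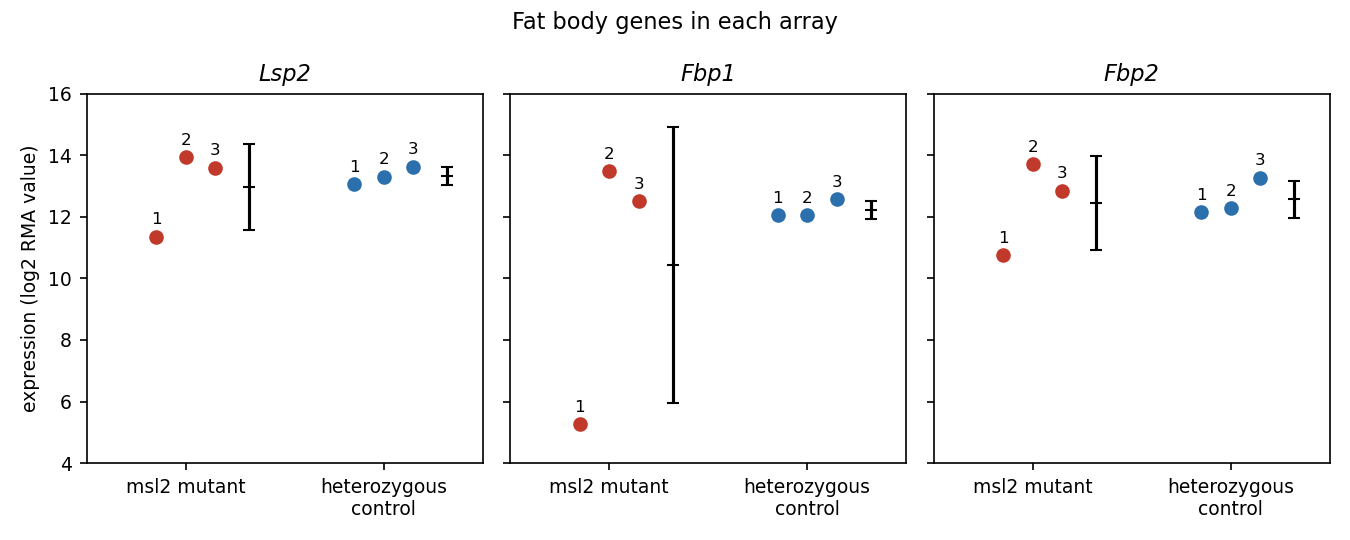
Log2 RMA values of Lsp2, Fbp1 and Fbp2 in each array, with the 3 msl2 mutant arrays in red and the 3 heterozygous control arrays in blue; the numbers are replicates, and the bars beside the points give the mean and SD of each group. Mutant replicate 1 is the lowest and mutant replicate 2 the highest array for each gene, and Fbp1 is at 5.27 in mutant replicate 1.

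Between the genotypes, 0 of the 3 probe sets passed the test. Differences were tested with limma over all 18769 probe sets and adjusted by Benjamini-Hochberg, with a threshold of 0.05, at which 0.0320% of all probe sets passed. At an unadjusted p under 0.05 it was also 0 of 3, against 7.51% of all probe sets, and 0 of 3 passed in any of the other fits tried. In none of the 3 genes were the groups apart, whereas 11.9% of all probe sets had groups that did not overlap.

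Fbp1 averaged 10.42 ± 4.48 in the mutants and 12.22 ± 0.30 in the controls (SD, n = 3 each), a difference of -1.80 (SE 1.97, limma adjusted p = 0.933). Lsp2 averaged 12.96 ± 1.40 in the mutants and 13.32 ± 0.28 in the controls, a difference of -0.36 (SE 0.64, limma adjusted p = 0.986). Fbp2 averaged 12.44 ± 1.52 in the mutants and 12.56 ± 0.60 in the controls, a difference of -0.13 (SE 0.73, limma adjusted p = 0.998). The 95% intervals of these differences ran from -6.48 to 2.88 for Fbp1, from -1.87 to 1.14 for Lsp2 and from -1.85 to 1.60 for Fbp2. They include large changes in both directions, so no difference was detectable with 3 pools per genotype.

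The sign of each difference rested on mutant replicate 1. Without it the differences were 0.77 for Fbp1, 0.44 for Lsp2 and 0.72 for Fbp2 (limma adjusted p of 0.772, 0.861 and 0.900). When mutant replicate 2 was left out they were -3.33, -0.85 and -0.76 (limma adjusted p of 0.382, 0.493 and 0.562). Leaving out control replicate 3, the brightest control for Fbp2, also turned its difference, to 0.22. In a whole larva, fewer fat body cells and less message per cell cannot be told apart.

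The spread of these genes within the mutant group was wide, which is given here as a description. By SD among the 3 mutant arrays, Fbp1 ranked 5 of 18769 probe sets, Fbp2 ranked 175 and Lsp2 ranked 233. The SD among the mutants was 15.1 times that among the controls for Fbp1, 4.97 times for Lsp2 and 2.52 times for Fbp2. Fbp2 also varied among the control pools, where its SD ranked 170, while Fbp1 ranked 1995 and Lsp2 2372. The lower ratio of Fbp2 than of Lsp2 thus went with a larger SD among its controls (0.60 against 0.28), while their SDs among the mutants were 1.52 and 1.40.

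**Figure D2:**
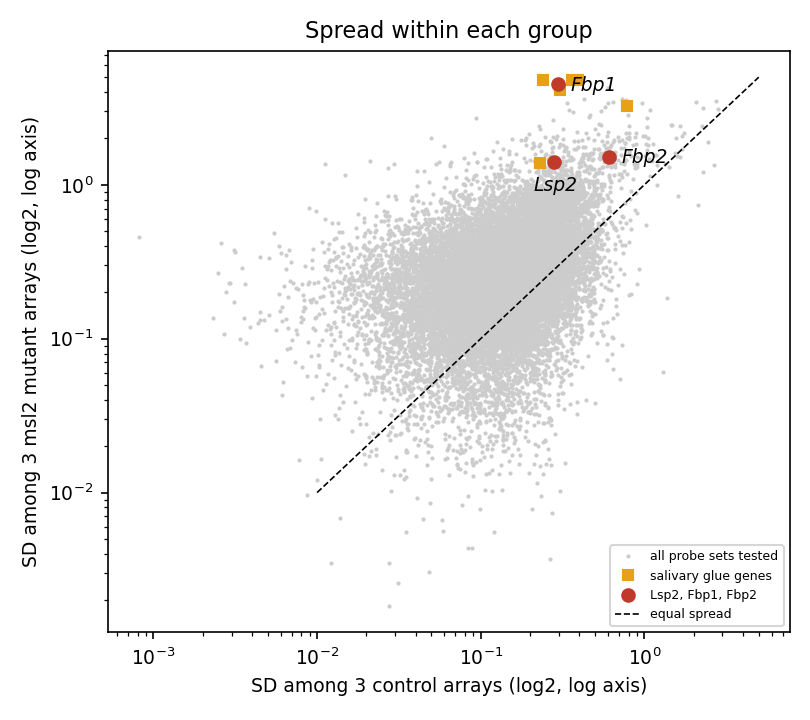
SD among the 3 msl2 mutant arrays against SD among the 3 control arrays for every probe set tested (grey), both in log2 units on log axes, with Lsp2, Fbp1 and Fbp2 in red and salivary glue genes in yellow. The 3 genes lie above the dashed line of equal spread, and Fbp1, with a mutant SD of 4.48, lies among the glue genes.

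The 3 genes placed the 6 arrays in exactly the same order. From the lowest value to the highest this was mutant 1, control 1, control 2, mutant 3, control 3 and mutant 2. Its middle part rests on near-ties. For Fbp1, control replicates 1 and 2 were at 12.04 and 12.05, and mutant replicate 3 and control replicate 3 at 12.51 and 12.56. For Lsp2, mutant replicate 3 and control replicate 3 were at 13.59 and 13.62. The order was noticed after the values were seen and has no test. It was found in 107 of 11982 genes (0.893%). Mutant replicate 1 being lowest and mutant replicate 2 highest was much more frequent, at 1362 genes (11.4%). The 3' minus 5' difference of the control probe sets was also highest in mutant replicate 1 (2.19) and lowest in mutant replicate 2 (1.33), and its part in these values was not tested. With that measure as a covariate, an alternative added after the values were seen, the genotype differences were -2.36 for Fbp1, -0.54 for Lsp2 and -0.34 for Fbp2 (limma adjusted p of 0.336, 0.550 and 0.796).

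The size of the swing differed between the genes even though the order was shared. The root mean square difference between mean-centred log2 profiles over the 6 arrays was 0.28 between Lsp2 and Fbp2. It was 1.92 between Lsp2 and Fbp1 and 1.93 between Fbp2 and Fbp1. Among 5990 other genes in the brighter 50%, Fbp2 ranked 7 by closeness to Lsp2, whereas Fbp1 ranked 5951. By closeness to Fbp1, however, Lsp2 ranked 47 and Fbp2 ranked 48, since few genes varied as much as Fbp1. Lsp2 and Fbp2 therefore varied by a similar amount, and Fbp1 by several log2 units more, nearly all of it in mutant replicate 1.

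The genes whose profile was most like that of Fbp1 were salivary glue genes. By the same measure Sgs4 was closest at 0.24, followed by Sgs3 at 0.33 and Sgs8 at 0.37, over 6 arrays. The profiles were not scaled, so for Fbp1 the measure rests mostly on the size of the fall in mutant replicate 1. This likeness and the falls given below are therefore not separate results. These genes encode proteins of the glue that fixes the puparium to its substrate and are made in the salivary gland, not the fat body. Sgs4 had log2 values of 5.94, 13.46 and 12.73 in mutant replicates 1, 2 and 3, against 12.45, 12.71 and 13.06 in the controls. Sgs4 is X-linked while Fbp1, Sgs3 and Sgs8 are on 3L. Ranked from the most negative difference between mutant replicate 1 and the control mean, Fbp1 was 4 of 18769 probe sets. Only 5 of 11982 genes lay more than 6 log2 units below the control mean there, namely Sgs7 (-8.00), Sgs3 (-7.82), Sgs8 (-7.82), Fbp1 (-6.95) and Sgs4 (-6.80). Their log2 values in that array lay between 4.63 and 5.94, near or below its median of 5.90, so these sizes and ranks depend on the dim end of the array and on how bright each gene was in the controls.

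The genes closest to Fbp2 were of other kinds. MtnC, a metallothionein gene, was closest at 0.17, followed by yellow-e, of the yellow family, at 0.18 and CG7320 at 0.22. MtnC had log2 values of 8.03, 11.08 and 9.87 in the mutants, against 9.38, 9.32 and 10.14 in the controls. As in Fbp2, mutant replicate 1 was lowest and mutant replicate 2 highest. Lsp2 had an SD of 0.93 over the 6 arrays, less than the 1 log2 unit set for naming such genes. Named after their values were seen, its closest profiles were CG34227 at 0.11, the glue gene Sgs5 at 0.13 and CG43085 at 0.18. Closeness to a glue gene was therefore not particular to Fbp1.

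**Figure D3:**
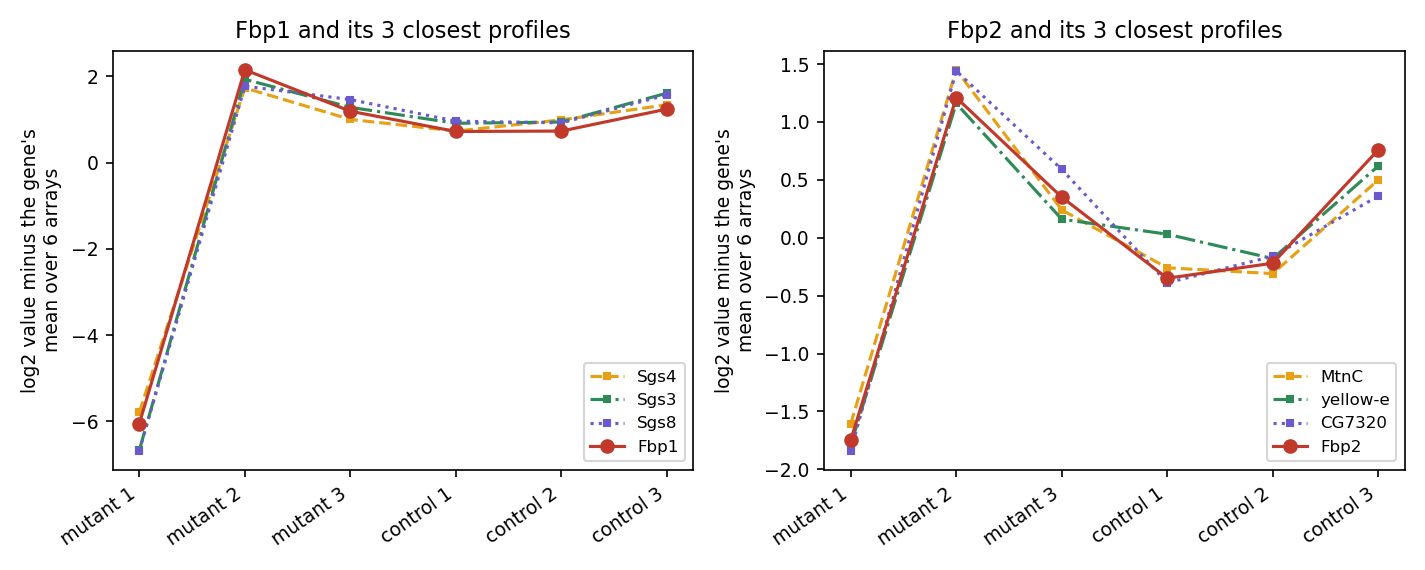
Log2 values minus each gene's mean over the 6 arrays, for Fbp1 with Sgs4, Sgs3 and Sgs8 (left) and for Fbp2 with MtnC, yellow-e and CG7320 (right); points are single arrays, with the 3 mutant arrays left of the 3 controls, and the panels have different vertical scales. The lines of each panel lie close together because the genes were chosen for the closeness of their profiles. Fbp1 and the glue genes are lowest in mutant replicate 1.

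The whole glue list showed the same arrays as the fat body genes. All 6 listed glue genes were measured. Mutant replicate 1 was the lowest and mutant replicate 2 the highest array for each, against 11.4% of all genes. The array order of Lsp2, Fbp1 and Fbp2 was found in 5 of the 6 glue genes, against 0.893% of all genes. That order was noticed after the values were seen, and the count turns on small differences. Control replicates 1 and 2 were at 13.47 and 13.49 in Sgs7, which had the order. They were at 12.99 and 12.94 in Sgs8, which lacked it. The median difference of the glue genes from the control mean was -7.31, 0.67 and 0.13 in mutant replicates 1, 2 and 3. It was -1.97, 1.15 and 0.28 for the 3 fat body genes and 0.04, -0.03 and 0.03 for all probe sets. In mutant replicate 1 the glue genes ranged from -8.00 to -2.18. Summed over the list, the log2 level was 11.41, 16.06 and 15.62 in the mutants, against 15.30 to 15.83 in the controls. None of the 6 passed the test between genotypes. Sgs7 had a difference of -2.49 (SE 2.10) and Sgs4 of -2.03 (SE 1.83), with limma adjusted p of 0.878 and 0.894. Both were above 0 without mutant replicate 1, at 0.27 and 0.35.

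Most other genes of the fat body were not low in mutant replicate 1. Of 18 listed genes of fat storage, lipoproteins and fat body metabolism, 13 were measured, 0 passed the test, 7 had a difference above 0 and the median difference was 0.13, against 0.01 over all probe sets. Their median against the control mean was 0.22 in mutant replicate 1, 0.09 in mutant replicate 2 and -0.02 in mutant replicate 3. Mutant replicate 1 was the lowest array for 4 of the 13, against 23.7% of all genes. In that array 5 of the 13 were below the control range. They lay between -1.36 and 0.65 there, so the lowest of them was nearer to the controls than Fbp2 (-1.81), the nearest of the 3 genes. Summed, their log2 level was 14.98, 15.42 and 15.31 in the mutants, against 15.09 to 15.25 in the controls.

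The members of that list with the smallest p went in opposite directions. Tsf1, the X-linked gene of the iron carrier transferrin, had log2 values of 9.57, 10.06 and 9.49 in the mutants. In the controls they were 9.36, 8.96 and 8.88, a difference of 0.64 (SE 0.21, limma adjusted p = 0.549). The gene mdy, which encodes the enzyme of the last step of triglyceride synthesis, had 8.93, 8.74 and 8.82 in the mutants, against 9.11, 9.20 and 9.05 in the controls, a difference of -0.29 (SE 0.12, limma adjusted p = 0.673). Both had groups that did not overlap, as did 11.9% of all probe sets, and neither passed. Chosen after its values were seen, apolpp, the lipoprotein precursor gene of the fat body and one of the brightest of the list, had 12.97, 13.09 and 13.09 in the mutants, against 13.15, 13.09 and 13.09 in the controls. Its level in mutant replicate 1 was thus within 0.2 log2 units of every other array. That does not stand for the list. Obp99b, an odorant-binding protein gene of the list that was as bright, was at -1.36 against the control mean in mutant replicate 1. It too was chosen after its values were seen, and 5 of the 13 genes were below the control range there.

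**Figure D4:**
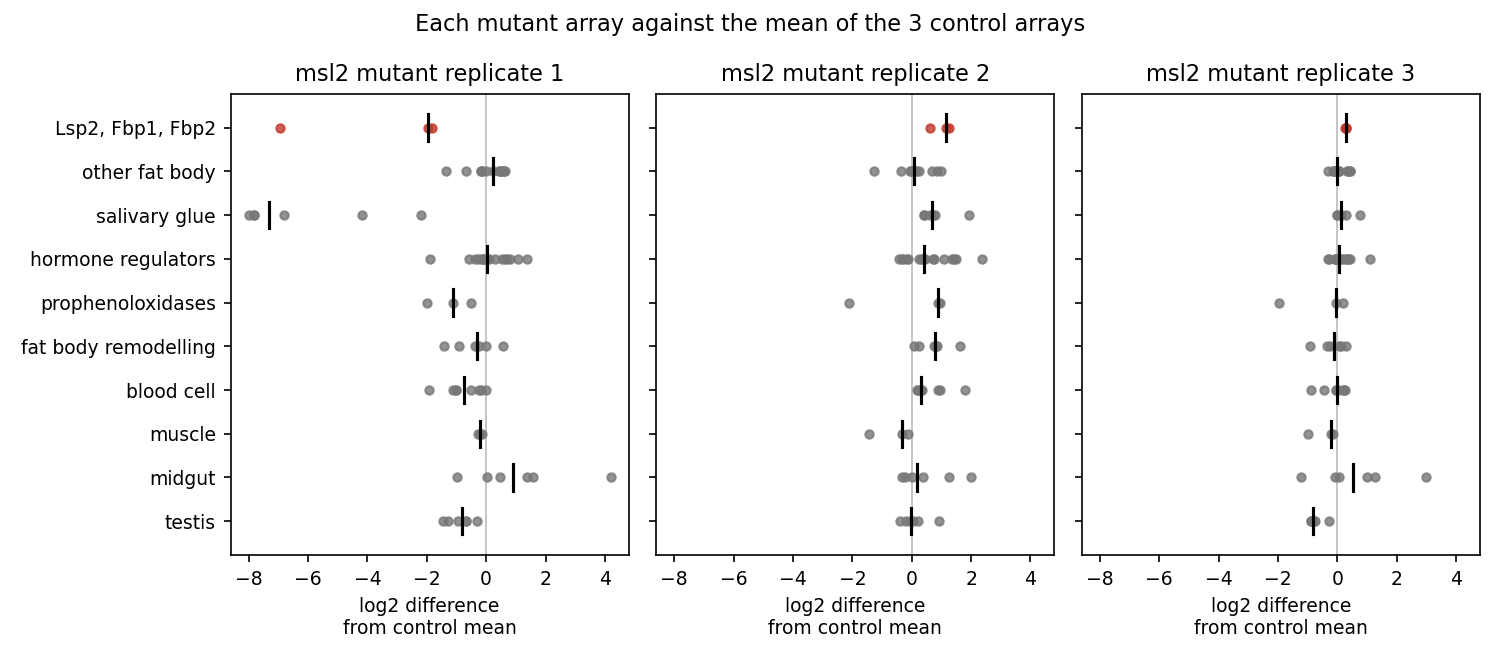
Log2 difference of each gene from the mean of the 3 control arrays, in mutant replicates 1, 2 and 3 (panels), by gene list (rows); points are genes, and short black lines are list medians. Lsp2, Fbp1 and Fbp2 (red, median -1.97) and the salivary glue genes (median -7.31) are low in mutant replicate 1, while the median of the other fat body genes is 0.22.

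Ecdysone and juvenile hormone are known to control when these fat body genes are switched on. Of 19 listed receptors and regulators of the hormone response, 17 were measured and 0 passed the test, with 12 above 0 and a median difference of 0.27, against 0.01 over all probe sets. At an unadjusted p under 0.05 it was 2 of 17, against 7.51% of all probe sets. Their medians against the control mean were 0.02, 0.40 and 0.05 in mutant replicates 1, 2 and 3. Mutant replicate 2 was the highest array for 10 of the 17, against 29.2% of all genes. The nuclear receptor gene ftz-f1, which acts in the prepupal response to ecdysone, had 5.38, 4.27 and 5.12 in the mutants, against 4.21, 3.83 and 4.02 in the controls. Its difference was 0.90 (SE 0.29, limma adjusted p = 0.537), and it passed only without mutant replicate 2 (1.23, limma adjusted p = 0.0187) or with the 3' minus 5' covariate (0.99, limma adjusted p = 0.0175). Of all probe sets, 7.08% passed without mutant replicate 2 and 1.65% with that covariate. Hr3, another nuclear receptor induced by ecdysone, had 3.49, 2.81 and 2.71 in the mutants, against 2.42, 2.49 and 2.33 in the controls, a difference of 0.59 (SE 0.22, limma adjusted p = 0.620). Its values lie at the dim end of the array, whose lowest values were between 2.25 and 2.39.

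Of the 17 hormone regulators, br and Met were lowest in mutant replicate 1 and highest in mutant replicate 2, as the fat body genes were. Over all genes the share with that pattern was 11.4%. Both br and Met are X-linked, while Lsp2, Fbp1 and Fbp2 are autosomal. The genes of this paragraph were named after their values were seen. The ecdysone-induced transcription factor gene br, an early regulator of larval and prepupal programmes, had 7.00, 10.37 and 9.10 in the mutants, against 9.31, 8.35 and 9.02 in the controls. Met, a juvenile hormone receptor gene, had 4.73, 5.41 and 4.81 in the mutants, against 5.15, 5.15 and 4.97 in the controls. The gene srp encodes a GATA factor of fat body and blood cells. It had 7.80, 8.22 and 6.81 in the mutants, against 7.42, 6.81 and 7.11 in the controls, so its lowest mutant array was mutant replicate 3. EcR, the ecdysone receptor gene, had 6.25, 7.71 and 6.48 in the mutants, against 6.55, 5.93 and 6.54 in the controls, with mutant replicate 1 inside the control range.

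Prophenoloxidases belong to the same protein superfamily as the hexamerins but are enzymes of blood cells. All 3 genes were measured and 0 passed the test. PPO2, of crystal cells, had 9.61, 11.07 and 10.29 in the mutants, against 9.97, 10.12 and 10.22 in the controls, with the lowest and the highest value in the same mutant arrays as for the fat body genes. Its difference was 0.22 (SE 0.34, limma adjusted p = 0.981). PPO3, of lamellocytes, went its own way, with 5.02, 4.91 and 5.06 in the mutants, against 6.29, 7.52 and 7.21 in the controls. All mutant values were below all control values, where 11.9% of all probe sets had groups that did not overlap. The PPO3 difference was -2.01 (SE 0.30, limma adjusted p = 0.161). It passed when mutant replicate 2 was left out (-1.97, limma adjusted p = 0.0272) and with the 3' minus 5' covariate (limma adjusted p = 0.0310). So did 7.08% and 1.65% of all probe sets in these fits.

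Genes for autophagy, matrix breakdown and lysosomal proteolysis, which act when the fat body is remodelled, gave a smaller swing between the same mutant arrays. Of 7 listed, 6 were measured and 0 passed the test. Their median against the control mean was -0.31 in mutant replicate 1, 0.79 in mutant replicate 2 and -0.10 in mutant replicate 3. Mutant replicate 2 was the highest array for 5 of the 6, against 29.2% of all genes. The members with the smallest p were Atg8b, at -0.75 (SE 0.39), and Atg1, the kinase that starts autophagy, at 0.50 (SE 0.25), with limma adjusted p of 0.729 and 0.722. Atg8b passed without mutant replicate 2, at -1.17 (limma adjusted p = 0.0391), as did 7.08% of all probe sets.

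Markers of other tissues moved with the same arrays to different degrees, and their part in the values of Lsp2, Fbp1 and Fbp2 was not tested. Of 8 blood cell markers, among them PPO1 and PPO2, 7 had mutant replicate 1 as lowest array and 5 had mutant replicate 2 as highest. Over all genes the shares were 23.7% and 29.2%. The medians of the markers were -0.75 and 0.32 in these arrays. Their summed log2 level was 10.88, 12.38 and 11.58 in the mutants, against 11.49 to 11.77 in the controls. He, a surface protein gene of blood cells, had a difference of -0.83 (SE 0.52) and NimC1, a phagocytosis receptor gene, of -0.41 (SE 0.31), with limma adjusted p of 0.782 and 0.839. The X-linked blood cell gene lz, named after its values were seen, was dim in all arrays. It was at 2.97, 3.19 and 3.20 in the mutants, against 3.13, 2.85 and 2.92 in the controls.

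Lists of muscle, midgut and testis genes were set beside the fat body genes, without a test of the difference between lists. Of 6 listed muscle genes, 3 were measured, with medians of -0.21, -0.34 and -0.22 in mutant replicates 1, 2 and 3. Their summed log2 level was 13.20 to 13.24 in the mutants, against 13.21 to 13.68 in the controls. Mlc2, a myosin light chain gene, had a difference of -0.90 (SE 0.30) and up, the X-linked troponin T gene, of -0.23 (SE 0.18). Their limma adjusted p were 0.560 and 0.840. Mlc2 passed with the 3' minus 5' covariate (limma adjusted p = 0.0470). The 6 midgut genes had medians of 0.91, 0.18 and 0.54, with a summed log2 level of 15.29 to 15.66 in the mutants, against 15.02 to 15.28 in the controls. Cht9, a chitinase gene, had a difference of 1.30 (SE 0.15) and Mal-A1, a maltase gene, of 3.06 (SE 0.51), with limma adjusted p of 0.0767 and 0.193. Cht9 passed with array weights, with trend and robust variance, with the 3' minus 5' covariate and when mutant replicate 2 was left out (limma adjusted p of 0.0411, 0.0272, 0.0138 and 0.0166). Mal-A1 passed in the same fits except that with trend and robust variance (0.0197, 0.00296 and 0.00745). The 6 testis genes had medians of -0.81, -0.01 and -0.82. As in the fat body genes, all 6 were below the control range in mutant replicate 1. That was the lowest array for 4 of them, against 23.7% of all genes. The median of the testis genes was as low in mutant replicate 3. Their summed log2 level was 9.52, 10.98 and 9.99 in the mutants, against 10.64 to 11.03 in the controls. The meiotic arrest gene comr had a difference of -0.60 (SE 0.14) and nht, a gene of spermatocyte transcription, of -0.65 (SE 0.21), with limma adjusted p of 0.353 and 0.530. Leaving out mutant replicate 2, both passed (0.0289 and 0.0197), and nht also did with the covariate (0.0470). Of all probe sets, 7.08% passed without mutant replicate 2 and 1.65% with the covariate. The shares were 0.325% with array weights and 0.0639% with trend and robust variance.

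The genes next to Lsp2, Fbp1 and Fbp2 on the chromosome did not in general share their values. The 2 nearest measured genes on each side gave 12 neighbours, of which 0 passed the test, with differences between -0.88 and 0.51. Mutant values were above all control values in 2 of the 12 and below them in 1. Over all probe sets, 11.9% had groups that did not overlap. The exception in pattern was CG8100, next to Fbp1, the only one of the 12 with the array order of the fat body genes. It had 5.77, 9.31 and 7.60 in the mutants, against 6.96, 7.10 and 8.09 in the controls. Against the control mean it differed by -1.61, 1.93 and 0.22, where Fbp1 differed by -6.95, 1.25 and 0.29. Its average difference was 0.18 (SE 0.83, limma adjusted p = 0.998). Of the other neighbours of Fbp1, Sox21a, a Sox transcription factor gene, differed by -0.05 (SE 0.15), its relative Sox21b by 0.04 (SE 0.21) and btl, the FGF receptor gene of the tracheae, by 0.10 (SE 0.18).

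Around Fbp2, FucTB and CG4438 had their lowest values in mutant replicates 1 and 3, where Fbp2 was below the control range in mutant replicate 1 and inside it in mutant replicate 3. FucTB, a fucosyltransferase gene, had 7.32, 8.35 and 7.66 in the mutants, against 8.55, 8.43 and 8.88 in the controls. Its groups did not overlap, as in 11.9% of all probe sets, and its difference was -0.84 (SE 0.28, limma adjusted p = 0.549). CG4438 had 7.15, 8.70 and 7.42 in the mutants, against 8.66, 8.47 and 8.79 in the controls, a difference of -0.88 (SE 0.39, limma adjusted p = 0.679). Both passed when mutant replicate 2 was left out (limma adjusted p of 0.0268 and 0.0125) and with the 3' minus 5' covariate (0.0454 each). So did 7.08% and 1.65% of all probe sets in these fits. Mco1, a multicopper oxidase gene, differed by -0.31 (SE 0.29) and scat by 0.12 (SE 0.18).

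Around Lsp2, DEF8 and CG5645 had mutant values above all control values, where 11.9% of all probe sets had groups that did not overlap. Their differences were 0.31 (SE 0.16) and 0.51 (SE 0.27). The Y-box protein gene yps differed by 0.47 (SE 0.25) and Ir68b, of the ionotropic receptor family, by 0.22 (SE 0.22). The limma adjusted p of these 4 genes lay between 0.736 and 0.922. In mutant replicate 1 the 4 genes were between 0.16 and 1.15 above the control mean, where Lsp2 was 1.97 below it.

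**Figure D5:**
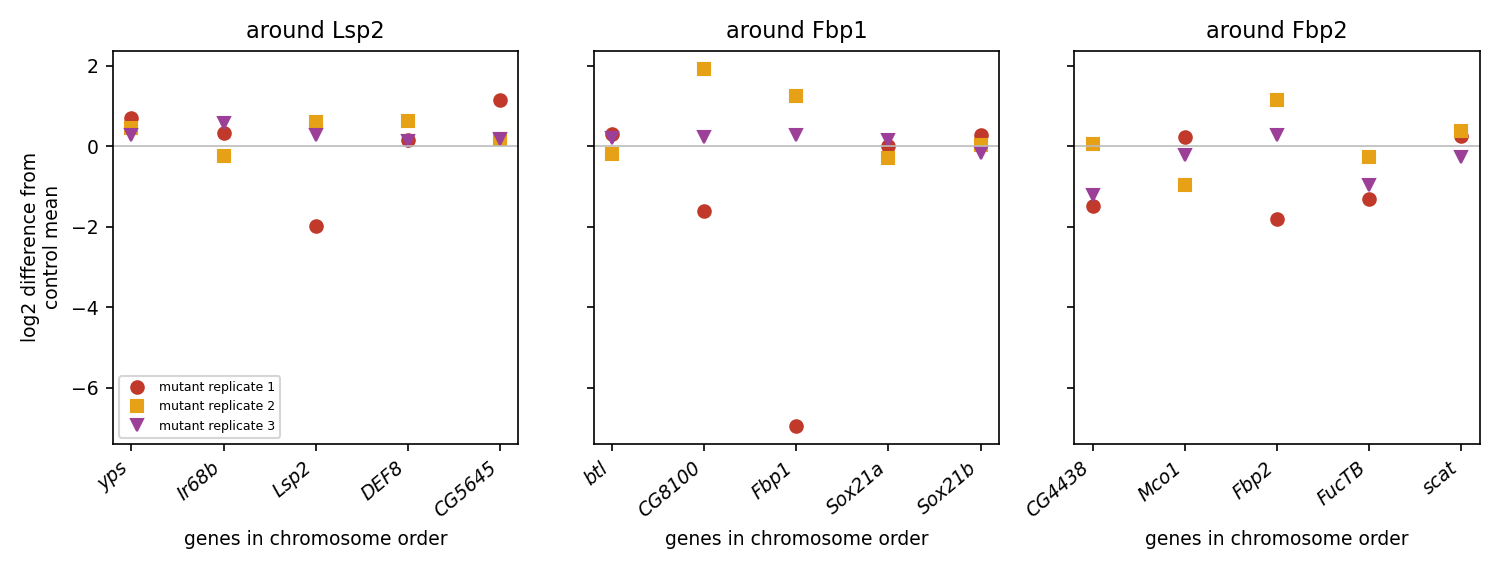
Log2 difference from the control mean in mutant replicates 1, 2 and 3 for Lsp2, Fbp1 and Fbp2 (middle of each panel) and the 2 nearest measured genes on each side, in chromosome order and not to distance. The low value of mutant replicate 1 is seen in each middle gene, at -1.97, -6.95 and -1.81, and among the neighbours in CG8100, at -1.61, CG4438, at -1.49, and FucTB, at -1.31.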

How the data were processed

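The authors deposited 1 log2 value per probe set and array, made by RMA, which corrects background, normalizes the arrays and summarizes probes, per the labels. GCOS 1.4 was used, per the submitters' processing notes; the RMA program and probe set definitions are not stated there. RMA makes the arrays' distributions alike and compresses dim values. The number of arrays limits the precision.

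Of 18952 probe sets, 183 controls were left out. The platform annotation gave 13647 of the others 1 symbol and 402 several, and 4720 are unnamed here. Symbols and gene order came from a RefSeq table (Release 6 plus ISO1 MT); 13544 of the 13647 were found in it. For lists and neighbours, the probe set with the highest mean stood for a gene (11982 genes).

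Mutant minus control differences were fitted with limma 3.58.1 (lmFit, eBayes, two-sided) in R 4.3.3 on all 18769 probe sets, without a block, with Benjamini-Hochberg adjustment and a threshold of 0.05. Plots used Python 3.11.15 and matplotlib 3.10.9. On simulated data made from the 18769 probe sets, 49.3% of changes of 1 log2 unit, 83.6% of 2 and 97% of 4 were recovered. There were 6 false calls. The simulation drew normal values with 1 SD per probe set for both groups and changed probe sets picked at random. Its rates therefore do not hold for Lsp2, Fbp1 and Fbp2, whose SDs among the mutants were far above the median. The genes and lists were chosen with earlier results of these data known. Named genes are all probe sets of the set, of each list up to 4 that passed, otherwise the 2 of smallest p, 2 neighbours per side, and the 3 closest profiles of genes with an SD over 1. Others are said to be named after their values were seen. Labels call the preparations independent. Tried alternatives were the features tested, a filter on dim probe sets, normalization, array weights, the variance model, a replicate block, leaving out each array, and a 3' minus 5' covariate (5 pairs of control probe sets), the last chosen after seeing the data.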

Additional observations from a re-analysis of the deposited data

How the results depend on the processing

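Under 14 alternatives, 0 of the 3 probe sets of Lsp2, Fbp1 and Fbp2 passed the threshold. Their differences ranged from -3.33 to 0.77 for Fbp1, from -0.85 to 0.44 for Lsp2 and from -0.76 to 0.72 for Fbp2 over leaving out each array, and were below 0 in the other 8 alternatives. The planned comparison of Lsp1alpha with its paralogs was not run, since Lsp1alpha, Lsp1beta and Lsp1gamma are not analysed here. Correlations between same-numbered arrays, each taken against its group mean, were 0.17, -0.33 and 0.06 for numbers 1, 2 and 3. Over all pairs of a mutant and a control array they ran from -0.35 to 0.29. They gave no sign of pairing by number, but with 3 arrays per group they cannot exclude it. With a replicate block 0 of 18769 probe sets passed, against 3 higher and 3 lower without it, and the differences of the 3 genes were the same. Of 66 measured genes of the other lists 0 passed (10 at an unadjusted p under 0.05, against 7.51% of all probe sets); the count was 2 with array weights, 1 with trend and robust variance, 6 with the 3' minus 5' covariate, and 0 to 10 over leaving out each array. Over all probe sets, 359 were higher and 970 lower without mutant replicate 2, 153 and 156 with the covariate, 32 and 29 with array weights, 0 and 0 when mutant replicate 3 or either of control replicates 2 and 3 was left out, 0 and 1 without control replicate 1, 1 and 2 without mutant replicate 1, 1 and 3 after quantile normalization again, 3 and 7 with arrays centred on their medians, 5 and 7 with trend and robust variance, and 0 and 2 with 1 probe set per gene.

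Some differences changed sign, large ones among them. With array weights PPO2 was at 0.00, CG8100 at -0.34, Sox21a at 0.05, scat at -0.01, MtnC at -0.33 and CG7320 at -0.19. With the covariate CG8100 was at -0.08, MtnC at -0.17 and CG7320 at -0.10. Over leaving out each array, the ranges that crossed or reached 0 were -3.93 to 0.27 for Sgs7, -3.41 to 0.35 for Sgs4, -3.85 to 0.45 for Sgs3, -3.76 to 0.47 for Sgs8, -0.97 to 0.51 for yellow-e, -0.66 to 0.87 for MtnC, -0.56 to 1.08 for CG7320, -0.70 to 1.07 for CG8100, -0.15 to 0.58 for PPO2, -0.15 to 0.08 for Sox21a, -0.11 to 0.22 for Sox21b, -0.01 to 0.25 for btl, -0.58 to 0.01 for Mco1 and 0.00 to 0.31 for scat. The causes were not tested.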

Other observations

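Obp99b, an odorant-binding protein gene counted here among the other fat body genes, was the member of that list with the arrays most like those of Lsp2; it was named after its values were seen. It had log2 values of 12.25, 14.28 and 14.03 in the mutants, against 13.28, 13.53 and 14.02 in the controls. Mutant replicate 1 was lowest and mutant replicate 2 highest, as for Lsp2, and the average difference was -0.09 (SE 0.52, limma adjusted p = 0.998). Apoltp, a lipid transfer particle gene of the fat body that was likewise named after its values were seen, ran the other way, with 10.93, 9.05 and 10.16 in the mutants, against 10.65, 10.32 and 9.99 in the controls.

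Below the glue genes and Fbp1, the genes next furthest below the control mean in mutant replicate 1 were Cyp6a17, a cytochrome P450 gene, at -5.55, Eig71Ee, an ecdysone-induced gene, at -5.51, CG42834 at -5.34 and Cpr78E, a cuticle protein gene, at -5.28. A total of 171 genes (1.43%) had mutant replicate 1 as their lowest array and at least 1.5 log2 units below the control mean, as Lsp2, Fbp1 and Fbp2 had.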
